A study of Mus musculus with 3 samples.

Results

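The interleukin 6 family was followed in 10 genes of the 22378 listed in each table. They were taken by gene name as 5 cytokines (Il6, Il11, Lif, Osm and Clcf1) and 5 receptor chains (Il6st, Il6ra, Lifr, Osmr and Il11ra1), and each had a usable value in all 3 libraries. All libraries were made from mammary cells or mammary gland tissue of mice on the FVB background, with 1 library per group. LCC held mammary cells, from donors carrying green fluorescent protein or stained with the dye DDAO, that were injected into a vein and sorted back out of the recipients' lungs 1 day later. That library pooled 15 experiments, 42 lungs and 455880 sorted cells. The labels give 8 donor mice and 4 recipient mice per experiment, and 2 injections of 2500000 cells each. E-Int29-Hi held dissociated cells of the gland sorted by surface EpCAM (intermediate) and CD29 (high), a gate labelled as enriched for the lung-colonizing cells, and MG held gland tissue that was not dissociated. These 2 libraries were each combined from 3 samples. The labels give no allele other than the fluorescent reporter of the donors, and no age.

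Cytokines of this family share gp130, the signal-transducing chain encoded by Il6st, and most use it together with a chain of their own. The receptors activate JAK kinases, which phosphorylate STAT3, and STAT3 in turn induces the feedback inhibitor SOCS3. In the mouse mammary gland the family is known for LIF and oncostatin M, which act through STAT3 as milk-producing epithelium dies back after weaning.

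As deposited, all 5 cytokines were highest in LCC, although Clcf1 stood below E-Int29-Hi with either rescaling tried, which left 4 of 5. Of the 5 receptor chains, 4 were lowest in LCC, and 5 with the rescaling to the same sum per library, which put Il11ra1 in LCC below the other libraries. Il6 stood at 613 FPKM in LCC, against 43.1 FPKM in E-Int29-Hi and 182 FPKM in MG. FPKM counts fragments relative to the length of the gene model and the size of the library, so levels of different genes can be set side by side roughly. How evenly and uniquely reads covered each gene is not known here. Il6ra, the chain that binds interleukin 6, stood at 1.85 FPKM in LCC, against 25.6 FPKM in E-Int29-Hi and 17.3 FPKM in MG. Of 12772 genes reaching 1 FPKM in some library, 41.6% were highest in LCC and 32% were lowest there. There is no replicate error behind any value, no p-value can be given, and both comparisons of LCC rest on the same LCC library. In pooled cells or tissue, fewer cells of a type and less RNA per cell cannot be told apart.

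The promoters of the cytokine genes are shown because these genes were highest together in LCC, and because factors of the NF-kappaB and AP-1 families are well known to act on Il6. Each window runs from 250 bases before to 50 after a RefSeq transcription start in build GRCm38.p6, on the gene's own strand. Of the 10 members, 8 had a window in the RefSeq table, namely all but Osm and Clcf1. Capitals mark matches to NF-kappaB letters (GGGA, any 4 bases, CC, or GGG, any 4 bases, TCC), AP-1 letters (TGANTCA) or CRE letters (TGACGTCA), each searched on both strands, with overlapping matches to one motif counted once. The Il6 window lies at chr5:30012864-30013163 (plus strand), the Lif window at chr11:4257318-4257617 (plus strand) and the Il11 window at chr7:4778092-4778391 (minus strand).
Il6: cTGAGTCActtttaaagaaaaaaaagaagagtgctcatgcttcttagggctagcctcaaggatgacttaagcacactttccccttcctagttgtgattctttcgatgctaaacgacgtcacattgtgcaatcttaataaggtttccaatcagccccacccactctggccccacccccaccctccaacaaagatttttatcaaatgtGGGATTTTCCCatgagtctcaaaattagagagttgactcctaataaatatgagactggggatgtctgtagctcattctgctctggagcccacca
Lif: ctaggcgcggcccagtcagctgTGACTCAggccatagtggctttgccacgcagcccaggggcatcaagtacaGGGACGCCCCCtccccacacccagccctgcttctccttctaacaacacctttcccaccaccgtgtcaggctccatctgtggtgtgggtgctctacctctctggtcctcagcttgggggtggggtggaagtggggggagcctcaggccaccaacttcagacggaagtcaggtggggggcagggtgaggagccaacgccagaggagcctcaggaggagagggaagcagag
Il11: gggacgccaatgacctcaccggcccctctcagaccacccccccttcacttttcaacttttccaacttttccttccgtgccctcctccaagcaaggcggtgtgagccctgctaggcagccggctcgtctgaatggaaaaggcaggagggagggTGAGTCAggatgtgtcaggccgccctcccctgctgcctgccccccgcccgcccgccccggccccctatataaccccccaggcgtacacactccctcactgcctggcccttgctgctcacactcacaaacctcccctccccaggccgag

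The Il6 window held an AP-1 match, TGAGTCA, from 249 to 243 bases before the start, and an NF-kappaB match, GGGATTTTCCC, from 44 to 34 bases before it. The Lif window held an AP-1 match, TGACTCA, from 228 to 222 bases before the start, and an NF-kappaB match, GGGACGCCCCC, from 178 to 168 bases before it. The Il11 window held an AP-1 match, TGAGTCA, from 98 to 92 bases before the start. This window was chosen for print because it holds that match, and the other Il11 window in the table, for another start site, held no match to any of these motifs. AP-1 letters were thus present in at least 1 window of each of the 3 cytokine genes with a window. Of all 32851 windows of this length, 7.81% hold them, a share by window that was not worked out by gene. The Osmr window held AP-1 letters too, after the start, at bases 4 to 10 with the start as base 1. NF-kappaB letters, which 29.0% of windows hold, were also present in windows of the receptor genes Il6ra, Lifr, Osmr and Il11ra1, and CRE letters, which 1.79% hold, in no window of a member. Letters for C/EBP (TTNNGNAA, in 40.7% of windows) occurred in the windows of Il6 and Il6ra, and letters for STAT (TTCNNNGAA, in 8.30% of windows) in no window of a member. A match is a description of letters and not a binding site, and no binding was measured here.

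Il6 (ENSMUSG00000025746), the cytokine for which the family is named, was the most abundant of the 5 in LCC and in MG, while Lif was the most abundant in E-Int29-Hi. Among all genes, Il6 held place 75 by FPKM in LCC, against place 1375 in E-Int29-Hi and place 200 in MG. It made up 70.1% of the summed FPKM of the 5 cytokines in LCC, against 26.6% in E-Int29-Hi and 69.9% in MG. Its level in LCC was 14.2 times that in E-Int29-Hi and 3.36 times that in MG.

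Il11 (ENSMUSG00000004371), a cytokine known from fibroblasts and from bone-metastatic breast cancer cells, stood at 91.6 FPKM in LCC, against 22.7 FPKM in E-Int29-Hi and 6.83 FPKM in MG. It differs from Il6 in the order of the other libraries, since Il6 was lowest in E-Int29-Hi and Il11 was lowest in MG. Against MG, the level of Il11 in LCC was 13.4 times as high, and it made up 10.5% of the summed cytokine FPKM in LCC against 2.62% in MG.

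Lif (ENSMUSG00000034394), which encodes leukaemia inhibitory factor, stood at 128 FPKM in LCC, against 61.7 FPKM in E-Int29-Hi and 51.1 FPKM in MG. Clcf1 (ENSMUSG00000040663), a cytokine of the family also known as cardiotrophin-like cytokine factor, stood at 37.2 FPKM in LCC, against 33.9 FPKM in E-Int29-Hi and 17.9 FPKM in MG. The Clcf1 levels of LCC and E-Int29-Hi were within 1.10 times of each other, and which of the 2 was higher turned with the scaling (log2 change 0.13 as deposited and -0.15 with median ratio scaling). Osm (ENSMUSG00000058755), which encodes oncostatin M and is known from macrophages, T cells and neutrophils, was the least abundant of the 5 cytokines, at 4.18 FPKM in LCC, 0.846 FPKM in E-Int29-Hi and 2.76 FPKM in MG. Osm and Lif are next to each other among the protein-coding genes of mouse chromosome 11 in the RefSeq annotation of GRCm38.p6, and their levels differed by at least an order of magnitude in each library.

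**Figure D1:**
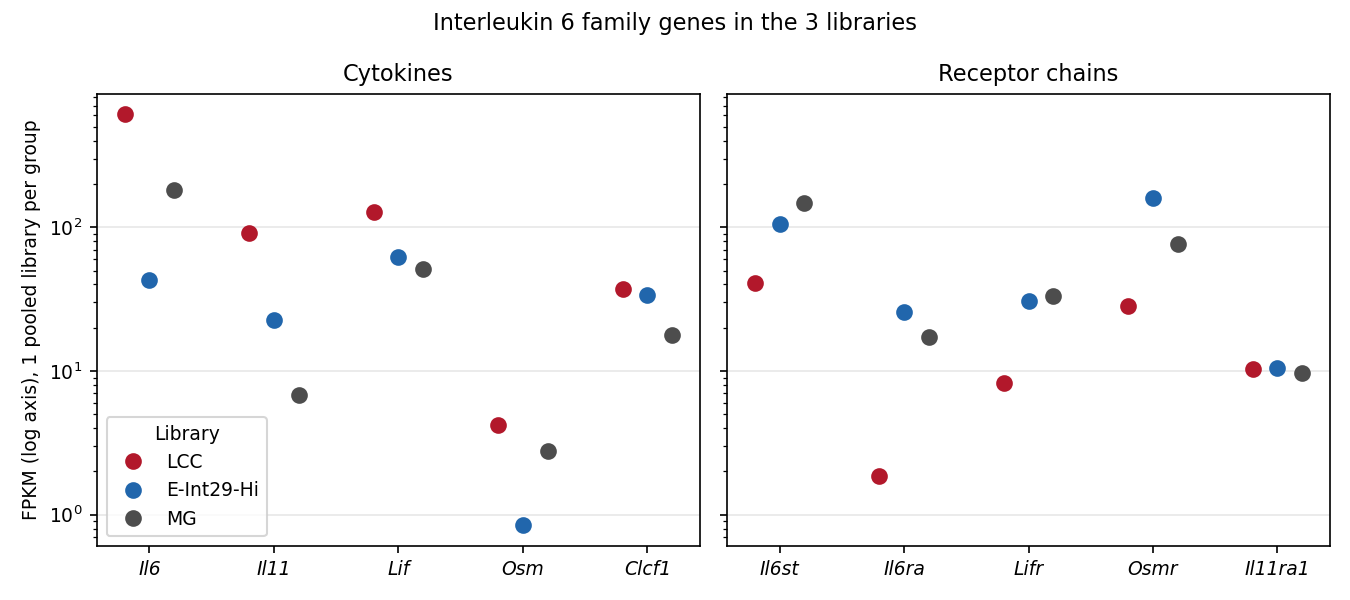
FPKM (log axis) of the 5 cytokines (left) and 5 receptor chains (right) in LCC, E-Int29-Hi and MG, 1 point per pooled library. As deposited, the LCC point is the highest for each cytokine (not for Clcf1 with either rescaling) and the lowest for each receptor chain except Il11ra1, whose points lie between 9.70 and 10.5 FPKM.

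Among the receptor chains, Il6st (ENSMUSG00000021756), the shared gp130 chain, stood at 41.0 FPKM in LCC, against 105 FPKM in E-Int29-Hi and 147 FPKM in MG. It was the most abundant receptor chain of LCC and of MG. Il6ra (ENSMUSG00000027947) was the least abundant chain in LCC, at place 10185 of all genes, against place 2257 in E-Int29-Hi and place 3479 in MG. The FPKM ratio of Il6st to Il6ra came to 22.1 in LCC, against 4.09 in E-Int29-Hi and 8.52 in MG. Il6ra was thus lower in LCC by a larger factor than gp130 was.

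Osmr (ENSMUSG00000022146) encodes the chain that pairs with gp130 for oncostatin M. It stood at 28.2 FPKM in LCC, against 159 FPKM in E-Int29-Hi and 76.8 FPKM in MG, and was the most abundant receptor chain of E-Int29-Hi. Lifr (ENSMUSG00000054263), the chain for leukaemia inhibitory factor, stood at 8.24 FPKM in LCC, against 30.5 FPKM in E-Int29-Hi and 33.4 FPKM in MG. Lifr and Osmr are neighbours on mouse chromosome 15, yet Osmr was highest in E-Int29-Hi and Lifr in MG, with the Lifr levels of these libraries within 1.09 times of each other and in the other order with median ratio scaling. Il11ra1 (ENSMUSG00000073889), the receptor chain for interleukin 11, stood at 10.3 FPKM in LCC, 10.5 FPKM in E-Int29-Hi and 9.70 FPKM in MG. Its near-identical mouse copy Il11ra2 stood at 0.522, 0.711 and 0.635 FPKM in that order of libraries, and reads may have been split between the copies.

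The cytokines summed to 875 FPKM in LCC, against 162 FPKM in E-Int29-Hi and 261 FPKM in MG. The receptor chains summed to 89.6 FPKM in LCC, against 330.1 FPKM in E-Int29-Hi and 284 FPKM in MG. The ratio of the sums, cytokines over receptor chains, was therefore 9.76 in LCC, against 0.492 in E-Int29-Hi and 0.919 in MG. By ligand and its own chain, Il6 over Il6ra was 331 in LCC, against 1.69 in E-Int29-Hi and 10.6 in MG. Lif over Lifr was 15.6, 2.02 and 1.53 in that order of libraries. Il11 over Il11ra1 was 8.89, 2.16 and 0.704, with the receptor chain nearly level. For oncostatin M the receptor was the more abundant side in each library, with Osmr over Osm at 6.74 in LCC, against 188 in E-Int29-Hi and 27.8 in MG. These ratios used no pseudocount, and 2 of them rest on a low gene. Those are 331 for Il6 over Il6ra (Il6ra at 1.85 FPKM in LCC) and 188 for Osmr over Osm (Osm at 0.846 FPKM in E-Int29-Hi). All are ratios of transcript levels and not of protein, and whether ligand and chain came from the same cells was not tested.

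LCC was set beside E-Int29-Hi to compare cells recovered from lung with the gate labelled as enriched for them. Changes are given as log2((FPKM + 1)/(FPKM + 1)), which understates those of low genes, and a gene is counted when it is at least 4-fold apart on this scale. Of the 10 members, 1 was counted as higher in LCC, Il6 (log2 change 3.80), where 4.64% of the 12147 genes reaching 1 FPKM in LCC or E-Int29-Hi were. Counted as lower were 2 members, Il6ra (-3.22) and Osmr (-2.45), where 4.35% of genes were. Il11, at 1.97, lay just under the limit. Osm stood at 1.49, Lif at 1.05, Il6st at -1.33, Lifr at -1.77 and Il11ra1 at -0.02.

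At the milder limit of 2-fold, 4 members were higher (Il6, Il11, Lif and Osm) and 4 lower (Il6ra, Osmr, Lifr and Il6st), against 21.2% and 14.1% of all genes. Counted by role, 4 of 5 cytokines were at least 2-fold higher and 0 lower, and 4 of 5 receptor chains at least 2-fold lower and 0 higher. The higher count was 3 of 5 with either rescaling, where Lif stood at 0.76 (median ratios) or 0.85 (same sum), and 3 of 5 with a pseudocount of 5, where Osm stood at 0.65. The share of all genes higher was then 14.9% (median ratios), 19.3% (same sum) and 9.97% (pseudocount of 5). The median of the cytokines was 1.49 and that of the receptor chains -1.77, beside 0.26 for all genes tested. Relative to that median of all genes, Il6 stood 3.54 higher, Il11 1.71 higher and Lif 0.78 higher, Clcf1 stood at -0.13, and Il6ra stood at -3.48, Osmr at -2.71, Lifr at -2.03 and Il6st at -1.59. By size of increase Il6 held place 88 of all genes tested, and by size of decrease Il6ra held place 156 and Osmr place 327.

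LCC was set beside MG to compare the recovered cells with the gland. Here Il11 (log2 change 3.56) was the 1 member counted as higher, where 1.33% of 12443 genes were, and it held place 18 of all genes by size of increase. The 1 member counted as lower was Il6ra (-2.68), where 2.63% of genes were, at place 120 by size of decrease. Il6 stood at 1.74, Lif at 1.31, Clcf1 at 1.01 and Osm at 0.46. Lifr stood at -1.90, Il6st at -1.82, Osmr at -1.41 and Il11ra1 at 0.08, or at -0.29 when rescaled to the same sum. At the limit of 2-fold, 4 members were higher (Il11, Il6, Lif and Clcf1) and 4 lower (Il6ra, Lifr, Il6st and Osmr), against 10.9% and 12.8% of all genes. Rescaled to the same sum, 2 were higher (Il11 and Il6), with Lif at 0.94 and Clcf1 at 0.66, and the same 4 lower, against 6.13% and 27.1% of all genes. With a pseudocount of 5, Clcf1 (0.88) was below the limit, and 5.81% of all genes were at least 2-fold higher. The median was 1.31 for the cytokines and -1.82 for the receptor chains, beside 0.01 for all genes tested. The count of Il6ra as lower ended with a pseudocount of 5 (-1.70).

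**Figure D2:**
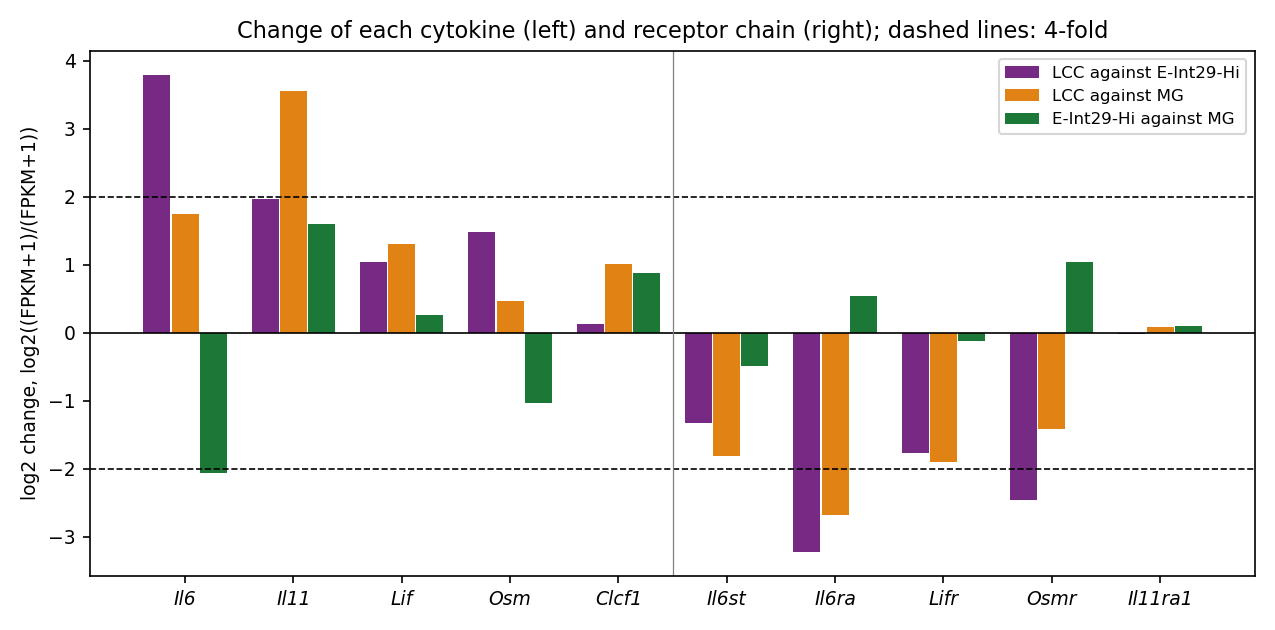
Log2 change of each member in 3 comparisons, as bars, on the log2((FPKM + 1)/(FPKM + 1)) scale, with dashed lines at 4-fold. As deposited, both comparisons of LCC are positive for each cytokine (Clcf1 against E-Int29-Hi turned negative with either rescaling) and negative for Il6st, Il6ra, Lifr and Osmr, while E-Int29-Hi against MG is mixed on either side of the vertical line.

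E-Int29-Hi was set beside MG to compare the gate with the gland it is part of. Of the 10 members, 0 were counted as higher and 1, Il6 (log2 change -2.06), as lower, where 2.6% and 3.97% of 12430 genes were. Counts of 0 and 1 are near those shares and are not read as a result about the members. Il6 dropped out of the count with median ratio scaling (-1.72) or a pseudocount of 5 (-1.96). At the limit of 2-fold, Il11 (1.60) and Osmr (1.04) were higher and Il6 and Osm (-1.03) lower, against 8.99% and 15.5% of all genes. Osm was below that limit with median ratio scaling (-0.83) or a pseudocount of 5 (-0.41), Osmr was below it with the same sum (0.87), and Clcf1 passed it with median ratio scaling (1.21). Clcf1 stood at 0.88, Il6ra at 0.54, Lif at 0.27, Il11ra1 at 0.10, Lifr at -0.12 and Il6st at -0.49. The sign of Lifr turned to 0.20 with median ratio scaling, and that of Il11ra1 to -0.06 when rescaled to the same sum. The median was 0.27 for the cytokines and 0.10 for the receptor chains, beside -0.23 for all genes tested.

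**Figure D3:**
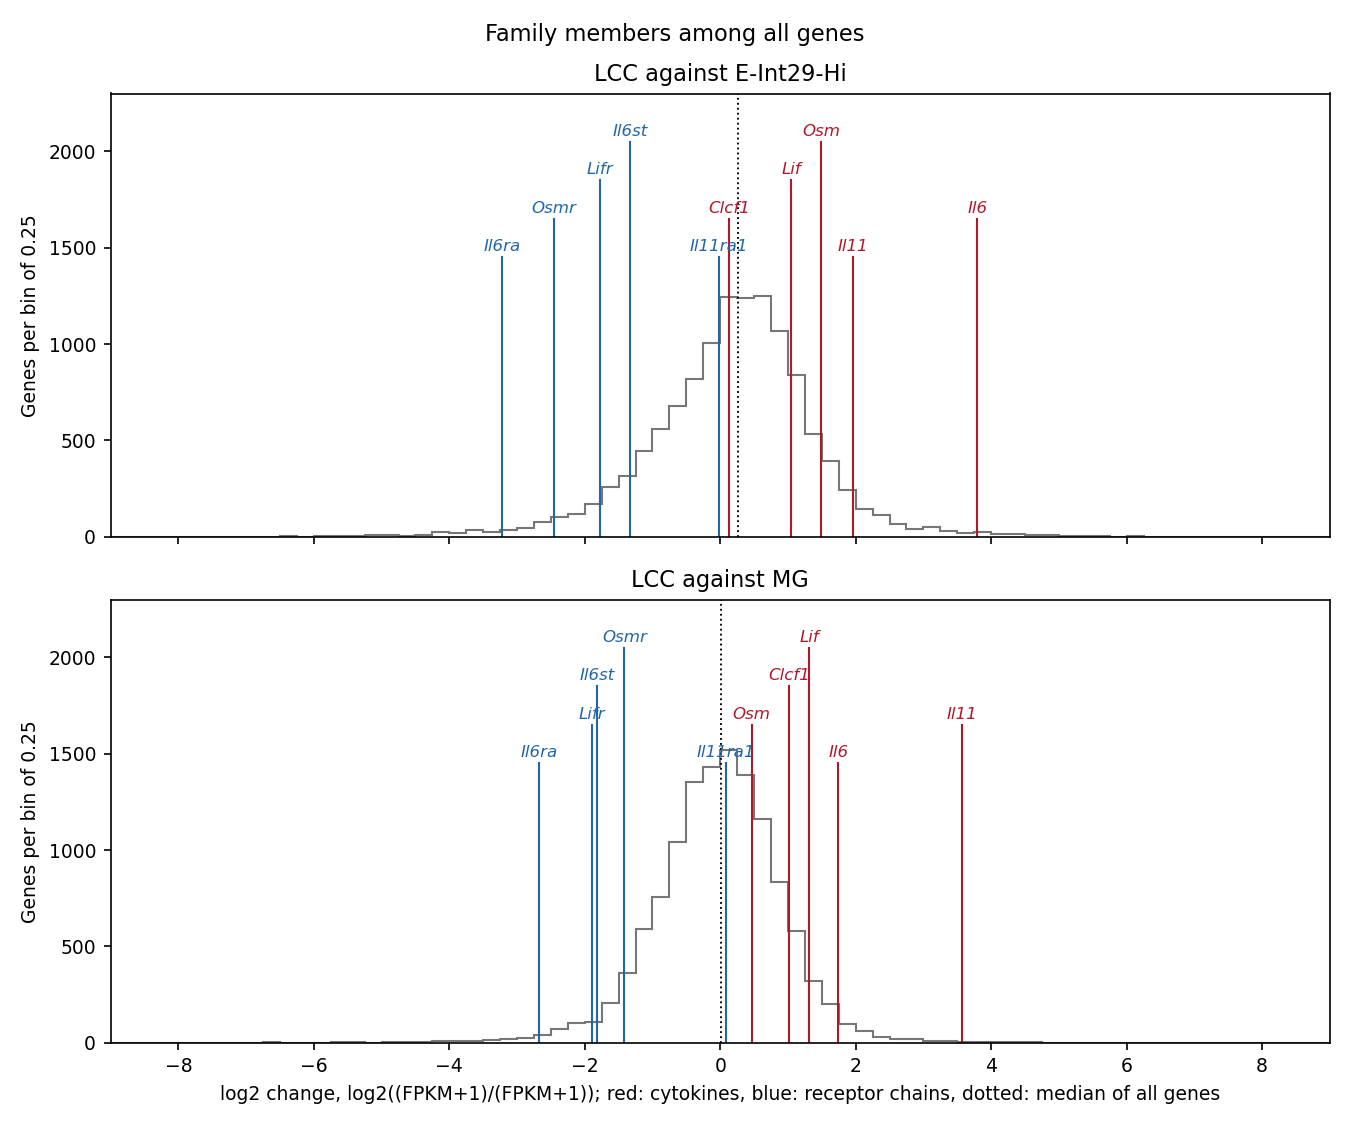
Distribution of the log2 change over all genes tested (grey outline, genes per bin), with cytokines as red lines and receptor chains as blue lines, for LCC against E-Int29-Hi (top) and LCC against MG (bottom); line heights carry no value. In the lower panel 4 receptor chains lie left of the dotted median of all genes (0.01) and 5 cytokines right of it, and in the upper panel (median 0.26) Clcf1 lies just left of the median.

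The 6 other cytokine genes of the family described here were scarce, at 2.44 FPKM or less in each library. Ctf1 (cardiotrophin 1) stood at 1.50, 2.03 and 0.963 FPKM, Cntf (ciliary neurotrophic factor) at 1.48, 0.886 and 2.44 FPKM, and Ebi3, a subunit of interleukin 27, at 1.23, 0.229 and 0.564 FPKM in that order of libraries. Ctf2, Il27 and Il31 were listed at 0 in LCC and stood at 0.237 FPKM or less in the other libraries.

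Further receptor chains of the family were also measured. Cntfr, the receptor chain for CNTF, stood at 2.63 FPKM in LCC, 17.9 FPKM in E-Int29-Hi and 5.22 FPKM in MG, a log2 change of -2.38 for LCC against E-Int29-Hi. Il27ra stood at 2.72, 0.392 and 1.24 FPKM in that order of libraries. Il31ra, which pairs with OSMR to bind interleukin 31, stood at 0.157, 0.0555 and 4.21 FPKM, a log2 change of -2.17 for LCC against MG and -2.30 for E-Int29-Hi against MG. Both proteases known to shed the interleukin 6 receptor were listed as well. Adam10 stood at 17.9, 12.9 and 47.5 FPKM and Adam17 at 13.3, 8.96 and 18.8 FPKM, and neither was 4-fold apart in any comparison.

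Of 11 relay genes, which carry the signal from the receptor (JAK kinases, STAT factors and the SHP2 branch), 1 was counted as lower in LCC than in E-Int29-Hi and 0 as higher, with a median of -0.39. That gene was Stat3, at 57.7 FPKM in LCC, against 325 FPKM in E-Int29-Hi and 150 FPKM in MG (log2 change -2.47 against E-Int29-Hi and -1.36 against MG). Jak1, the main kinase bound to gp130, stood at 76.7 FPKM in LCC, 116 FPKM in E-Int29-Hi and 121 FPKM in MG. Stat5a, the factor of prolactin signalling, stood at 21.2, 34.6 and 60.0 FPKM in that order of libraries. Against MG, 0 of 11 were counted in either direction for LCC (median -0.63) and for E-Int29-Hi (median -0.05). Over all genes tested, 4.64% were counted as higher and 4.35% as lower in LCC than in E-Int29-Hi (median 0.26). Against MG the shares were 1.33% and 2.63% for LCC (median 0.01), and 2.6% and 3.97% for E-Int29-Hi (median -0.23). Jak2 was not used here, because the authors' status marked its value as failed in at least 1 library.

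Among 8 inhibitors of the pathway, 0 were counted as higher or lower in any comparison. Socs3, the STAT3-induced inhibitor that binds gp130, stood at 59.5 FPKM in LCC, against 224 FPKM in E-Int29-Hi and 164 FPKM in MG, with log2 changes of -1.90 and -1.44 for LCC. Socs2 stood at 17.0, 46.6 and 16.6 FPKM and Ptpn2, a phosphatase that acts on JAK and STAT proteins, at 36.6, 56.6 and 27.7 FPKM in that order of libraries. The median of the 8 was -0.46 for LCC against E-Int29-Hi, 0.17 for LCC against MG and 0.29 for E-Int29-Hi against MG. The medians of all genes were 0.26, 0.01 and -0.23, and the shares counted are those given for the relay genes.

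Genes known to respond to STAT3 were split in direction. Without Osmr and Il6st, which are members, 17 were tested, Socs3 among them. Against E-Int29-Hi, 2 were counted as higher in LCC and 0 as lower, where 4.64% and 4.35% of all genes were. The median was 0.27 beside 0.26 for all genes. Timp1, a metalloproteinase inhibitor, stood at 352 FPKM in LCC, against 47.7 FPKM in E-Int29-Hi and 24.3 FPKM in MG. Ccnd1, cyclin D1, stood at 52.7 FPKM in LCC, against 11.5 FPKM in E-Int29-Hi and 16.8 FPKM in MG. Other signals than STAT3 are known to induce both.

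Against MG, 1 of the 17, Timp1, was counted as higher in LCC and 2, Fos and Lrg1, as lower, with a median of -0.46. Over all genes the shares were 1.33% and 2.63%, with a median of 0.01. Fos, an AP-1 subunit induced within minutes by many signals, stood at 94.7 FPKM in LCC, 369 FPKM in E-Int29-Hi and 604 FPKM in MG, and Junb at 329, 614 and 453 FPKM in that order of libraries. The acute-phase gene Lrg1 stood at 7.37, 16.4 and 47.5 FPKM. Saa3, at 1.62, 0.104 and 7.93 FPKM, and Hp (haptoglobin), at 4.44, 1.06 and 16.6 FPKM, were counted as lower for E-Int29-Hi against MG (log2 changes -3.02 and -3.10).

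**Figure D4:**
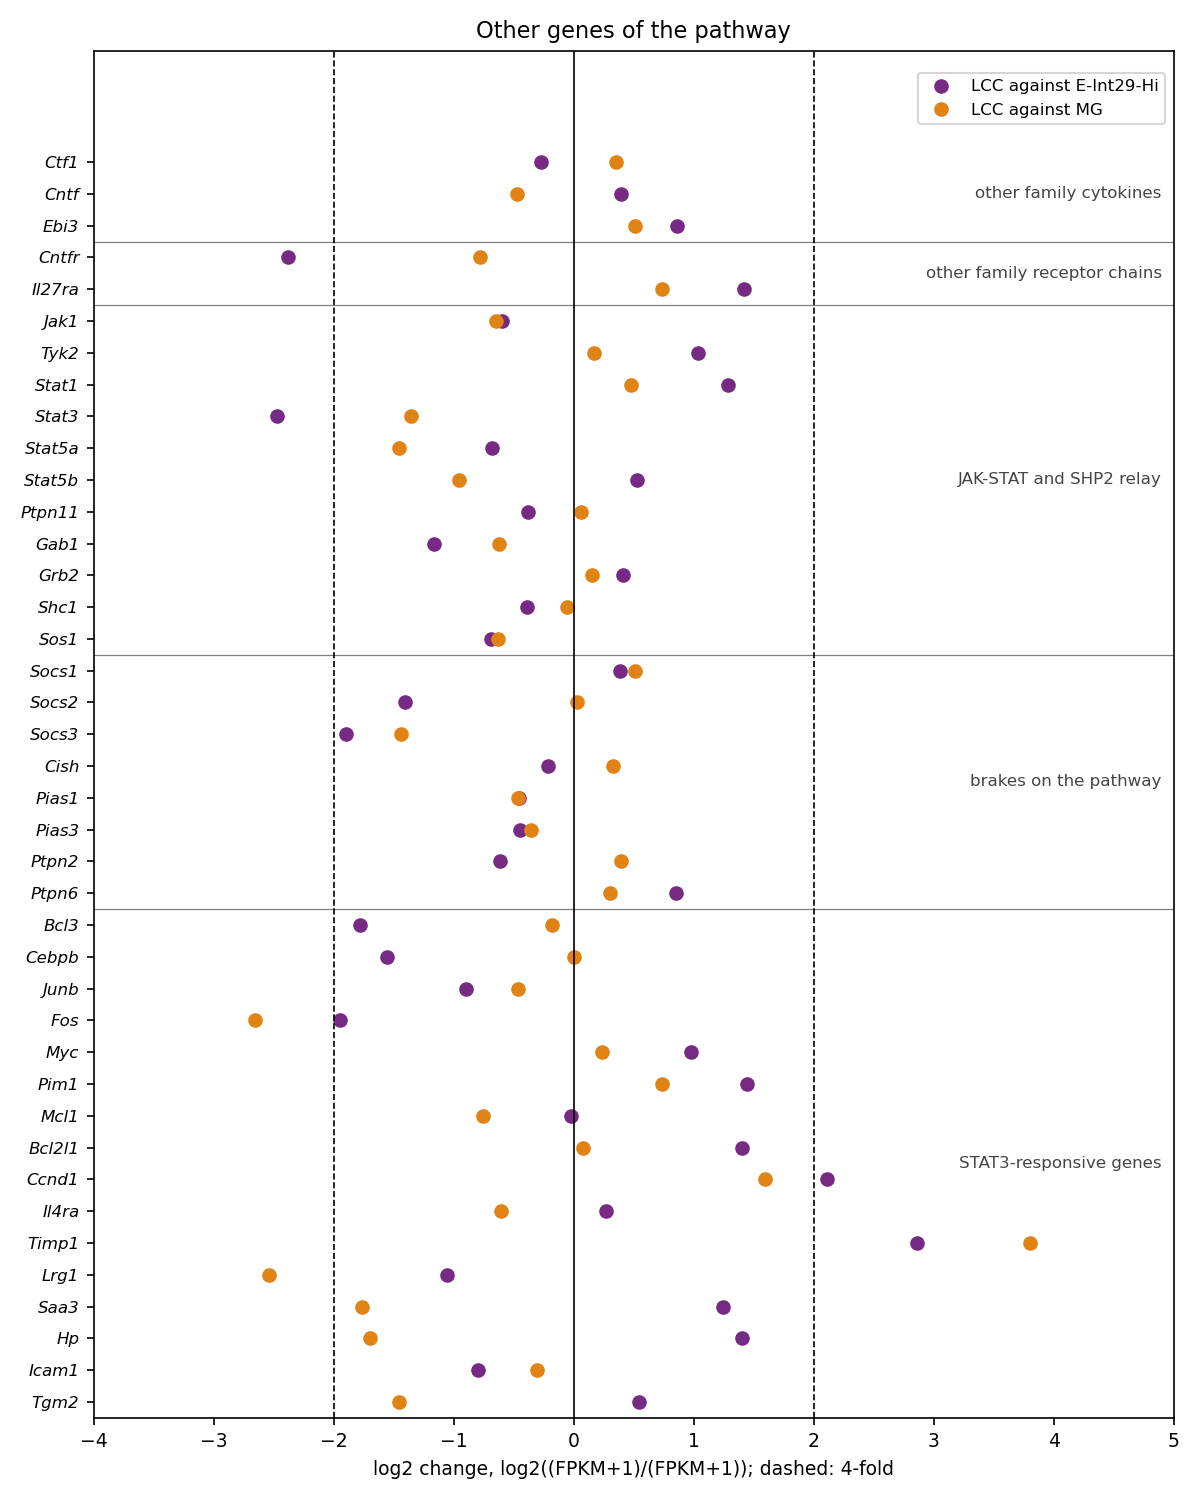
Log2 change (log2((FPKM + 1)/(FPKM + 1)) scale) of other pathway genes that passed 1 FPKM in both comparisons of LCC, against E-Int29-Hi (purple) and against MG (orange), with dashed lines at 4-fold. Timp1 (2.86 and 3.80) lies farthest right, and Stat3, Socs3 and Fos lie left of 0 in both.

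Of the genes that STAT3 is known to control in the involuting mammary gland, 0 were counted as higher in LCC in either comparison. Of all genes, 4.64% were higher than in E-Int29-Hi and 1.33% higher than in MG. Besides Osmr, the measured genes Saa3 and Lrg1 of this involution list are shared with the STAT3-responsive genes above. Without Osmr, 3 of 11 tested were counted as lower than in E-Int29-Hi (median -1.04), where 4.35% of all genes were (median 0.26). Against MG, 3 of 12 were counted as lower (median -1.54), where 2.63% of all genes were (median 0.01). Lcn2, lipocalin 2, stood at 55.2 FPKM in LCC, against 2148 FPKM in E-Int29-Hi and 363 FPKM in MG. Igfbp5, which binds insulin-like growth factors, stood at 26.1 FPKM in LCC, against 515 FPKM in E-Int29-Hi and 221 FPKM in MG. Pik3r1, a regulatory subunit of phosphoinositide 3-kinase, stood at 19.5, 92.4 and 45.2 FPKM in that order of libraries, and Ctsl, a lysosomal cathepsin, at 249.8, 514 and 280 FPKM. For E-Int29-Hi against MG, 1 of 12 (Lcn2, log2 change 2.56) was counted as higher and 3 as lower, namely Saa3, Cd14 (51.1, 16.0 and 130 FPKM) and Il1r1 (32.6, 7.71 and 58.4 FPKM). The shares of all genes were 2.6% and 3.97%. Il1r1, the interleukin 1 receptor, was 1.95 higher on the log2 scale in LCC than in E-Int29-Hi.

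Likeness of pattern was measured as the distance between log2(FPKM + 1) profiles over the 3 libraries, each centred on its own mean, among the 6793 genes reaching 10 FPKM in some library. With 3 libraries many genes share a pattern, so these are descriptions. Closest to Il6 were Tnfrsf23 (distance 0.05), Rgs1 (0.13), Cd97 (0.15), Sdcbp2 (0.15) and Lsp1 (0.18). Lsp1, a cytoskeletal protein of leukocytes, stood at 61.7 FPKM in LCC, 2.94 FPKM in E-Int29-Hi and 18.3 FPKM in MG. Closest to Osmr were Dusp6 (0.01), Sbno2 (0.03), Stat3 (0.05), Dst (0.06) and Celsr2 (0.07). Sbno2 stood at 47.2, 270.4 and 129 FPKM in that order of libraries, and Dusp6, a phosphatase of ERK kinases, at 23.6, 135 and 65.4 FPKM.

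Markers of several cell types differed between the libraries. Over all genes tested, 4.64% were counted as higher and 4.35% as lower in LCC than in E-Int29-Hi, and 1.33% and 2.63% against MG. Basal epithelial markers, led by Krt14, Krt17 and Acta2, summed to 643 FPKM in LCC, 6804 FPKM in E-Int29-Hi and 417 FPKM in MG, with 6 of 6 counted as lower in LCC than in E-Int29-Hi. Against MG, they went both ways, with Krt17 at 1.59 and Krt14 at 1.01 higher, and Trp63 at -1.05 and Oxtr at -2.42 lower, 1 of the 6 counted as lower and a median of -0.12. Luminal markers, led by Krt18, Krt8 and Krt19, summed to 3873 FPKM in LCC, 277 FPKM in E-Int29-Hi and 1997 FPKM in MG, with 3 of 6 counted as higher in LCC than in E-Int29-Hi and 3 of 6 as lower than in MG. The sum rested on these keratins, while the other members were lowest in LCC. Elf5 stood at 0.964 FPKM in LCC, 2.90 FPKM in E-Int29-Hi and 15.6 FPKM in MG, Esr1 at 0.734, 3.06 and 10.6 FPKM, and Prlr at 1.50, 1.83 and 39.4 FPKM in that order. The median of the luminal list against MG was -1.87, although its sum was higher in LCC.

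Fibroblasts are a known source of Il6, Il11 and Lif. Their markers, led by Col3a1, Col1a2 and Col1a1, summed to 1331 FPKM in LCC, 129 FPKM in E-Int29-Hi and 2851 FPKM in MG. In LCC 5 of 6 were counted as higher than in E-Int29-Hi, and 6 of 6 stood below MG, by less than 4-fold. Macrophage and monocyte markers, led by Lyz2, Cd68 and Csf1r, summed to 306, 86.4 and 56.2 FPKM in that order of libraries, with 1 of 5 tested counted as higher in each comparison of LCC and 0 lower. Lyz2 alone made 232 FPKM of the LCC sum. Itgam stood at 10.1, 1.67 and 2.01 FPKM. Adgre1, listed as Emr1, was nearly level between LCC and MG, at 2.42, 1.39 and 2.38 FPKM. Fcgr1 was lowest in LCC, at 0.124, 0.284 and 0.607 FPKM. Dendritic cell markers, led by Ccl22, Ccr7 and Itgax, summed to 95.8, 6.71 and 13.5 FPKM, with Cd209a listed at 0 in LCC. Of 4 tested, 3 were counted as higher in LCC than in E-Int29-Hi and 2 as higher than in MG.

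Neutrophil markers summed to 31.7 FPKM in LCC, 1.49 FPKM in E-Int29-Hi and 11.7 FPKM in MG. The LCC sum rested on S100a9 (15.9 FPKM), S100a8 (14.6 FPKM) and Csf3r (1.15 FPKM), while Ly6g, Mpo, Cxcr2 and Ngp were listed at 0 there. Lung epithelial markers summed to 628, 10.1 and 2.98 FPKM in that order of libraries. Scgb1a1 alone made 572 FPKM of the LCC sum, followed by Sftpc (36.3 FPKM) and Ager (7.44 FPKM). Foxj1 was highest in E-Int29-Hi, at 3.69 FPKM in LCC, 7.75 FPKM in E-Int29-Hi and 1.33 FPKM in MG. Endothelial markers, led by Cdh5, Pecam1 and Cldn5, summed to 106, 92.6 and 499 FPKM, with 3 of 6 counted as lower in LCC than in MG and a median of -2.12, and lymphocyte markers, led by Cd3e, Cd3g and Cd4, to 2.34, 1.05 and 5.14 FPKM. The part of these cell types in the levels of the cytokines and receptor chains was not tested.

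**Figure D5:**
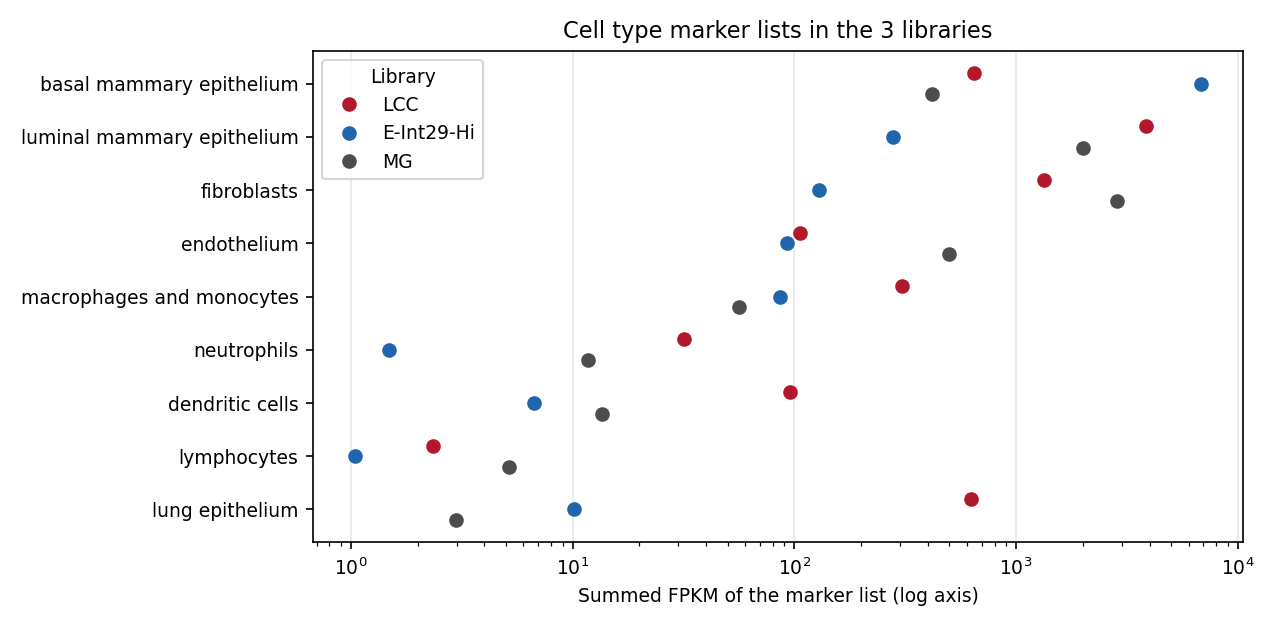
Summed FPKM (log axis) of each cell type marker list in LCC, E-Int29-Hi and MG, 1 point per pooled library. Fibroblast markers are highest in MG (2851 FPKM), basal markers in E-Int29-Hi (6804 FPKM), and macrophage, dendritic cell and lung epithelial markers in LCC.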

How the data were processed

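RNA of 3 pooled mouse libraries was captured with poly-T beads and sequenced on an Illumina HiSeq instrument, per the labels' protocols. For each library the authors deposited FPKM per gene beside a status flag. The submitters' processing notes name TopHat 1.4.1, Cufflinks 1.3.0 and mm9 but not what each was used for, with an annotation release not given in the sources used here. Read counts and depth are unknown, so no counting interval is given. FPKM values of the genes analysed summed to 375295 in LCC, against 325939 in E-Int29-Hi and 288156 in MG.

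The 22188 genes flagged OK in every library were used. Where several gene models had 1 name, the one with the highest summed FPKM was kept, leaving 22077 names. Log2 changes used a pseudocount of 1 and genes reaching 1 FPKM in either library, and a change of 2 or more in size (4-fold) was counted. No test was possible, because each group has 1 library. Of these steps, only the 4-fold count was tried on simulated data. That trial used 1 simulated pair of libraries, with changed genes drawn from those at 10 FPKM or more in MG.

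The members and lists were chosen with earlier results of these data known. Some genes of the lists are not reported here and are left out of the sums. The text names all members and the other family genes reported, of each other pathway list the 3 genes with the highest FPKM in any library and any gene at least 4-fold apart, of each cell type list the 3 highest, and the 5 genes most like the most abundant cytokine and receptor chain. Other markers, among them Csf3r and those listed at 0, were named after their values were seen. Promoter sequences and gene order are those of RefSeq, GRCm38.p6. That build differs from the files', so its coordinates are used for the promoters alone. Alternatives were a pseudocount of 0.1 or 5, no filter or one at 5 FPKM, median ratio scaling, scaling every library to an equal sum (TPM), genes of any status, and summed gene models. Python 3.11.15, numpy 2.4.6, pandas 2.3.3 and matplotlib 3.10.9 were used.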

Additional observations from a re-analysis of the deposited data

How the results depend on the processing

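Among the members, the count at least 4-fold higher in LCC than in E-Int29-Hi was 1 as reported and 3 with a pseudocount of 0.1, which added Il11 (log2 change 2.01) and Osm (2.18), while the share of all genes was 4.64% and 9.29%. The count lower in LCC than in MG was 1 as reported, 2 with a pseudocount of 0.1, which added Lifr (-2.01), 0 with a pseudocount of 5, and 3 when rescaled to the same sum, which added Il6st (-2.21) and Lifr (-2.35), while the share of all genes was 2.63%, 6.55%, 0.763% and 6.37%. The count lower for E-Int29-Hi against MG was 1 as reported and 0 with a pseudocount of 5 or median ratio scaling, while the share of all genes was 3.97%, 1.28% and 2.87%. Lifr also reached 4-fold below E-Int29-Hi in LCC with median ratio scaling (-2.04) and with the same sum (-2.04). The share of all genes lower was then 5.72% and 6.82%, against 4.35% as reported. At the 2-fold limit, also tried after seeing the data, members higher in LCC than in MG numbered 4 as reported (10.9% of all genes) and 2 with the same sum (6.13%). For E-Int29-Hi against MG, members higher numbered 2 as reported (8.99% of all genes). They numbered 3 with median ratio scaling (13.8%) and 1 with the same sum (8.08%). Members lower numbered 2 as reported (15.5%). They numbered 1 with a pseudocount of 5 (6.29%), a filter at 5 FPKM (15.8%) or median ratio scaling (11.1%). Members lower in either comparison of LCC numbered 4 under each alternative. The share of all genes lower ranged from 7.65% to 19.9% against E-Int29-Hi and from 4.67% to 27.1% against MG. A pseudocount acts most on low genes by construction. Either scaling multiplies each library by a constant factor, which moves the FPKM ratios of all genes alike. Scaling to the same sum also raised all values, while the pseudocount and the filter stayed at 1. Both were thus smaller beside the values, and genes tested for LCC against MG rose from 12443 to 14421. How much each part added to a shift was not tested.

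Of 237 member values under the alternatives, 227 stayed on their side of the 4-fold limit, and 5 changed sign, all of them values under 4-fold: Clcf1 for LCC against E-Int29-Hi (with both scalings), Lifr for E-Int29-Hi against MG, and Il11ra1 for LCC against MG and for E-Int29-Hi against MG. Osm gave no value with a filter at 5 FPKM. The order of levels was tried as an alternative chosen after seeing the data: cytokines highest in LCC numbered 4 or 5, and receptor chains lowest in LCC 4 or 5.

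Over all genes, the higher and lower counts depended on the pseudocount and on scaling. With a pseudocount of 0.1 they were 1128 and 947 for LCC against E-Int29-Hi, 334 and 815 for LCC against MG, and 521 and 1089 for E-Int29-Hi against MG. With a pseudocount of 5 they were 209 and 235, 71 and 95, and 138 and 159 in that order. LCC against E-Int29-Hi gave 564 and 528 as reported, and 451 and 700 with median ratios. LCC against MG gave 166 and 327, and 157 and 919 with the same sum. E-Int29-Hi against MG gave 323 and 494, 465 and 356 with median ratios, and 375 and 1011 with the same sum. The median log2 change of all genes moved to 0.00108 for LCC against E-Int29-Hi with median ratios (0.26 as reported), to -0.41 for LCC against MG with the same sum (0.01 as reported), and to 0.07 or -0.45 for E-Int29-Hi against MG with median ratios or the same sum (-0.23 as reported). The shifts of member values above are to be read against these.

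No paired analysis was possible because each group has 1 library. Without replicates or read counts, no difference has an error.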
